A study of Rattus norvegicus with 18 samples.

Results

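The genes of the mitochondrial respiratory chain and ATP synthase were followed through 6 groups of cultured rat astrocytes. The members were the 86 genes of the 10434 rows of the deposited expression table whose symbols begin with Nduf followed by a, b, c, s or v, with Uqcr, with Cox and a number from 4 to 8, or with Atp5, or are Sdha, Sdhb, Sdhc or Sdhd. They comprise 35 subunits of complex I, 7 complex I assembly factors, 4 subunits of complex II, 8 of complex III, 14 of complex IV and 16 of complex V, with Ndufa4 and the ATP synthase inhibitor Atp5if1 kept apart. Per the labels, the cells were primary astrocytes isolated by immunopanning, in which cells are caught on antibody-coated dishes, from brain of postnatal day 5 rats. They received, for 24 h, the buffer PBS as control, the type II interferon IFNγ, the type I interferon IFNβ, the cytokines TNFα and IL1α with complement C1q (TIC), IFNγ together with TIC (IFNγ+TIC), or IFNβ together with TIC (IFNβ+TIC), with 3 libraries in each group. No strain, genotype or transgene is named in the labels. The labels give IFNγ at 3 ng/ml and IFNβ at 1000 U/ml, and the deposited workbook's legend gives IFNγ at 1000 U/ml and IFNβ at 3 ng/ml. TNFα was used at 30 ng/ml, IL1α at 3 ng/ml and C1q at 40 ng/ml per the labels, or at 400 ng/ml for C1q per the legend. No result here rests on a dose.

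Complex I passes electrons from NADH, and complex II from succinate, to ubiquinone. Complex III hands them to cytochrome c and complex IV reduces oxygen with them, while complexes I, III and IV pump protons out of the matrix. Complex V, the ATP synthase, lets protons return through its membrane ring and makes ATP in its F1 head. Complex II is also an enzyme of the tricarboxylic acid cycle. Astrocytes are known for strong glycolysis and lactate release, and they also hold respiring mitochondria. TNFα, IL1α and C1q are signals that microglia release and that drive cultured astrocytes into a reactive state. IFNγ and IFNβ act through separate receptors and STAT proteins.

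The values are FPKM, read fragments scaled to transcript length and library size, and they summed to 505785 to 542922 per library. The sequencing depth behind them is unknown. Libraries of a group correlated at 0.982 to 0.991 on the log2 scale. Whether the 3 libraries of each group stem from different cultures or animals is not told by the labels, so p-values measure only how these libraries spread, which may be technical. All 8 astrocyte markers of the list were measured, with Gja1, a gap junction protein, at 423 FPKM and the glutamate transporter Slc1a2 at 26.9 FPKM on average in the controls. No endothelial marker of 3 was among the genes analysed, and the 3 of 8 microglial markers measured (Aif1, Tyrobp and Fcer1g) summed to at most 8.76 FPKM in any library. Log2 changes below are differences of group means of log2(FPKM + 1) from limma with their standard error (SE), which understate the change of low genes. A gene is said to be higher or lower, to rise or to fall, where its Benjamini-Hochberg adjusted p over the 10298 genes tested was under 0.05. All 86 members passed the filter of 1 FPKM in at least 3 libraries.

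In the control cells the members together took 4.23% of the summed FPKM. FPKM is a level per transcript length, so levels of different genes are set side by side, as a rough guide only. The build behind the values could not be settled and the counting rules were not given. The F1 head of complex V held the member with the highest level. Its catalytic subunit Atp5f1b stood at 1530.2, 1404 and 1538 FPKM in the 3 controls, and its partner Atp5f1a at 781, 668 and 746 FPKM. Cox8a, a small subunit of complex IV, followed at 758, 780.0 and 805 FPKM, so that the ranges of Atp5f1a and Cox8a overlapped. Sdhc, a membrane anchor of complex II, averaged 561 ± 2.79 FPKM (SD, n = 3) and Ndufb4, an accessory subunit of complex I, 549 ± 57.5 FPKM. Uqcrc1, a core protein of complex III, was the highest of its complex at 401 ± 8.71 FPKM. At the other end were the tissue isoforms of complex IV. Cox4i2, the lung-type form of subunit 4, averaged 1.004 ± 0.494 FPKM against 360.3 ± 17.2 FPKM for the common form Cox4i1. Cox6a2, the heart and muscle form, averaged 1.29 ± 1.14 FPKM and was listed at 0 in 1 control library, and Cox6b2, the testis form, averaged 8.93 ± 2.98 FPKM. The lowest subunit of complex I was Ndufs6, at 16.1 ± 1.86 FPKM. The 7 complex I assembly factors, which help build the complex and are not part of it, averaged between 9.64 FPKM for Ndufaf1 and 28.6 FPKM for Ndufaf8. Levels of Ndufa10 and its near-identical copy Ndufa10l1 are uncertain, since the authors' way of splitting shared reads was not given in the sources used here, and members with processed pseudogenes share that limit.

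The summed level of the 86 members was 21766 ± 678 FPKM in the controls (SD, n = 3), 21029.8 ± 52.0 with IFNγ and 19789.5 ± 919 with IFNβ. It was 18050.5 ± 1016 with TIC, 16104 ± 862 with IFNγ+TIC and 14984 ± 515 with IFNβ+TIC. Every library with TIC, at 14391 to 19068 FPKM, lay below every control library, at 21037 to 22377 FPKM. After median-ratio scaling the sums were 20051.5 ± 545 in the controls, 19931 ± 300 with IFNγ and 20209.7 ± 956 with IFNβ, so the mean with IFNβ was not below the controls. The scaled sums were 17349.7 ± 1132 with TIC, 16825.8 ± 751 with IFNγ+TIC and 16190.5 ± 422 with IFNβ+TIC. The share of the library's FPKM went from 4.23% to 3.40%, 3.02% and 2.82% in the groups with TIC, IFNγ+TIC, and IFNβ+TIC. In bulk RNA, fewer cells of a type and less RNA per cell cannot be told apart. The mean level was lowest with IFNβ+TIC for 58 members and highest in the controls for 42. After median-ratio scaling these numbers were 44 and 18.

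**Figure D1:**
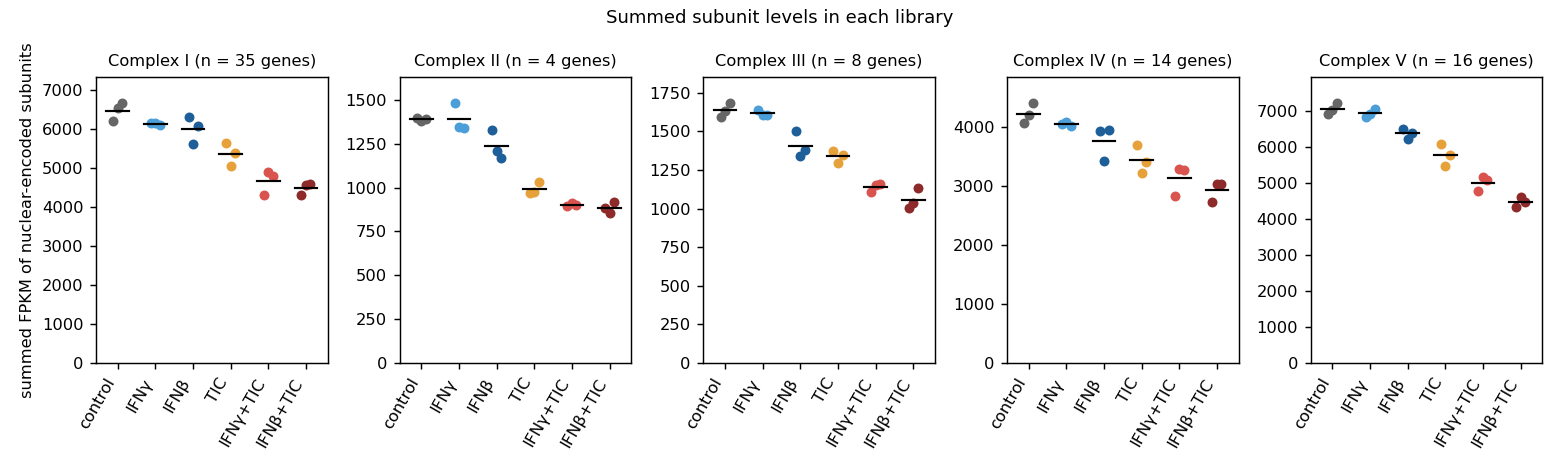
Summed FPKM, as deposited, of the subunits of each complex, with 1 point per library and a bar at the mean of the 3 libraries of each of the 6 groups. Complex V averaged 7048 FPKM in the controls and 4473 FPKM with IFNβ+TIC, and complex II 1389.5 and 886 FPKM.

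With TIC, 40 of the 86 members (46.5%) were lower than in the controls and 3 (3.49%) were higher, while 31.2% of all genes tested were lower and 25.3% higher. With IFNγ+TIC, 60 members (69.8%) were lower and 3 higher, against 40.4% and 22.9% of all genes. With IFNβ+TIC, 63 (73.3%) were lower and 3 higher, against 42.8% and 19.3%. The median log2 change of the members was -0.20, -0.36 and -0.49 in these comparisons, where the median of all genes tested was -0.04, -0.15 and -0.20. These comparisons share the control libraries. Because the median of all genes itself lay below 0 in some groups, the counts were also taken after median-ratio scaling, which brings that median close to 0. The numbers lower were then 33, 40 and 49 (38.4%, 46.5% and 57.0% of the members), beside 27.9%, 31.1% and 29.3% of all genes, and the numbers higher were 3, 5 and 4, beside 29.2%, 31.6% and 30.3%. The members' medians were then -0.14, -0.18 and -0.26. With all 3 treated libraries below all 3 controls stood 42, 60 and 66 members, where 33.2%, 43.0% and 44.1% of all genes did so.

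The interferons alone left smaller differences. With IFNγ, 1 member was lower and 0 were higher by limma, against 7.18% and 7.11% of all genes. At an unadjusted p under 0.05 the numbers were 6 lower and 0 higher, and the authors' deposited table called 0 lower and 0 higher. The 1 member was the assembly factor Ndufaf6, at 15.4, 17.8 and 15.9 FPKM in the controls and 10.01, 12.4 and 12.3 with IFNγ. These ranges did not overlap, with a log2 change of -0.47 (SE 0.15, adjusted p = 0.0470). The call was lost in each of the 6 fits that left out 1 library of either group, with adjusted p up to 0.158, and after scaling (adjusted p = 0.0746). With IFNβ, 24 members (27.9%) were lower and 1 was higher, against 29.2% and 8.86% of all genes, so the share of members lower was near that of all genes. After scaling, 9 were lower and 4 higher, against 15.9% and 14.3% of all genes, and the median of the members went from -0.13 to 0.02, a change of sign, while that of all genes went from -0.16 to -0.03. With IFNγ, 0 members were lower and 0 higher after scaling, against 5.41% and 8.31%. The sign also changed with IFNγ, from -0.04 to 0.01.

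**Figure D2:**
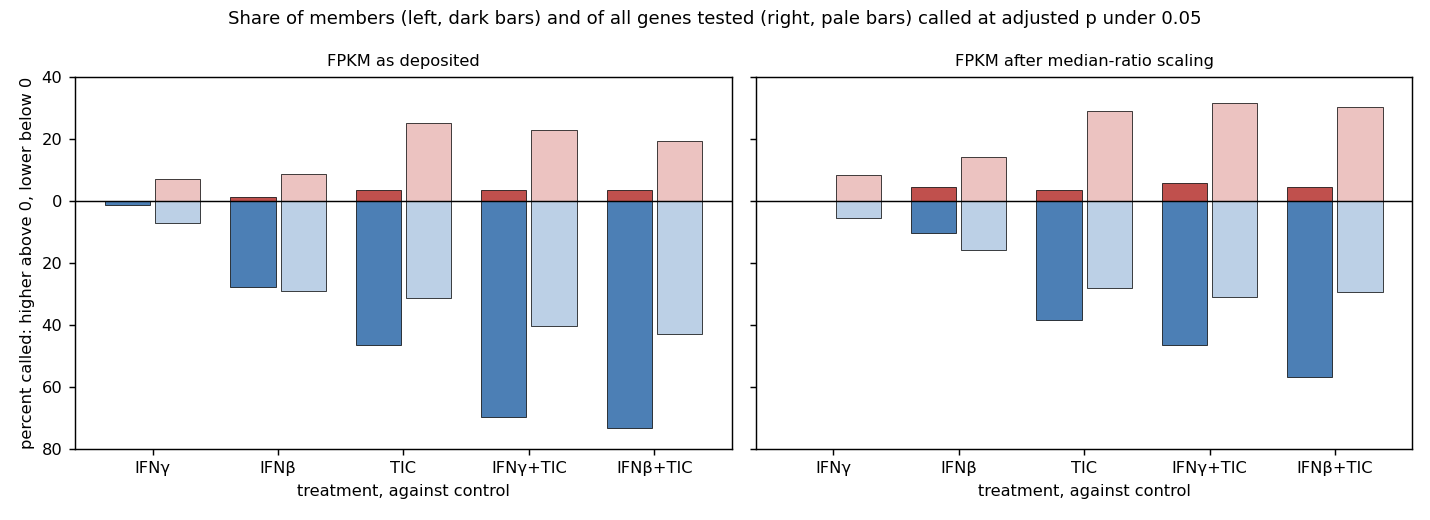
Share in percent of the 86 members (dark bars) and of all genes tested (pale bars) called higher or lower against the controls (limma, adjusted p under 0.05) in the 5 treated groups, with FPKM as deposited and after median-ratio scaling. The share of members lower with IFNβ alone was 27.9% as deposited and 10.5% after scaling, and with IFNβ+TIC 73.3% and 57.0%.

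Markers of astrocytes and of other cells also differed between the groups. The 8 astrocyte markers summed to 2326 to 2542 FPKM in the controls, 2065 to 2144 with IFNγ, 1546 to 1601 with IFNβ, 1184 to 1219 with TIC, 755 to 779 with IFNγ+TIC and 1104 to 1227 with IFNβ+TIC. S100b and Gfap made up most of the difference in this sum, with mean levels going from 1351 to 302 and from 440.0 to 218 FPKM between the controls and TIC. The means of Gja1, Aldh1l1 and Slc1a2 were higher with TIC alone. They went from 423 to 494, from 52.8 to 64.1 and from 26.9 to 31.2 FPKM. The means of Aqp4, Slc1a3 and Sox9 went down there, from 34.4 to 28.2, from 11.001 to 6.68 and from 79.8 to 63.1 FPKM. With IFNγ+TIC and IFNβ+TIC, Gja1 averaged 264 and 329 FPKM and Slc1a2 24.02 and 21.6 FPKM, below the controls. Aldh1l1 stayed above them, at 67.5 and 84.5 FPKM, and Aqp4 was above them with IFNβ+TIC only, at 41.4 FPKM. The 4 markers of oligodendrocyte precursors, all measured, summed to 875 to 1116 FPKM in the controls and to 256 to 284, 128 to 136 and 233 to 286 in the groups with TIC, IFNγ+TIC, and IFNβ+TIC. With IFNγ or IFNβ alone these 4 summed to 876 to 1017 and 897 to 1067 FPKM, which overlapped the controls. Olig1 and Olig2 made up most of this sum, with means going from 789 to 207 and from 177 to 57.04 FPKM between the controls and TIC. The means of Pdgfra and Cspg4 were low, going from 2.72 to 2.66 and from 1.51 to 5.48 FPKM. Cspg4 was above its control mean in all 3 groups with TIC. Among these 3 groups, Pdgfra was clearly below its control mean only where an interferon was added. With IFNγ or IFNβ alone Pdgfra averaged 2.19 and 1.34 FPKM, also below its control mean. In every library the sums of both marker lists were lower with TIC than without it. The 4 of 5 neuronal markers measured summed to 40.6 to 50.2 FPKM in the controls, 26.7 to 35.8 with IFNγ, 21.99 to 25.2 with IFNβ, 55.04 to 62.9 with TIC, 41.9 to 49.7 with IFNγ+TIC and 15.8 to 18.4 with IFNβ+TIC. This sum was thus above the controls with TIC alone, overlapped them with IFNγ+TIC and was below them in the other groups. Snap25 made up most of it, with a mean going from 33.3 to 52.1 FPKM between the controls and TIC. Tubb3 and Syt1 went from 1.92 to 2.97 and from 0.0588 to 0.626 FPKM, while Map2 went down, from 10.1 to 2.36 FPKM. The 3 of 6 pericyte and fibroblast markers measured summed to 32.2 to 47.8 FPKM in the controls, 65.5 to 92.5 with IFNγ, 70.0 to 96.2 with IFNβ, 27.2 to 30.4 with TIC, 77.1 to 93.0 with IFNγ+TIC and 50.3 to 58.1 with IFNβ+TIC, below the controls with TIC alone and above them in the other 4 treated groups. Tagln made up most of this sum, averaging 35.0 FPKM in the controls and 24.2 with TIC. The means of Pdgfrb and Col1a1 were low and were higher with TIC, going from 1.66 to 1.98 and from 1.19 to 2.70 FPKM. The part of these cell types in the results on the respiratory chain was not tested.

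To show the DNA in front of members that moved, promoters were taken from RefSeq on the rat assembly GRCr8, where 74 of the 86 members had an entry of 250 bases before and 50 bases after the annotated start. Printed are the 250 bases before the start, 5′ to 3′ on the gene's strand, for 1 member each of complexes I to IV that fell in all 3 groups with TIC, and for the ATP synthase inhibitor Atp5if1, which rose in them. Sdha is at chr1:30764303-30764552 (plus strand), Ndufb4 at chr11:76568928-76569177 (plus), Uqcrh at chr5:134790883-134791132 (minus), Cox8a at chr1:213833624-213833873 (minus) and Atp5if1 at chr5:150026678-150026927 (minus). These coordinates are those of GRCr8 and not of the build the authors used. Capitals mark GCGCA, any base and then GCGC, searched as the motif of NRF1, a known activator of respiratory chain genes, and CCGGAAG, a motif of ETS factors with GABP among them, on either strand.
Ndufb4: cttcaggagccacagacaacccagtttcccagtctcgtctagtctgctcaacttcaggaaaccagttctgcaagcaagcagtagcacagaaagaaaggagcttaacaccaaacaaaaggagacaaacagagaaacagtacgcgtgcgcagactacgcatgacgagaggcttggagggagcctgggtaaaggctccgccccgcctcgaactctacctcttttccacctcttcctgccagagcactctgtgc
Sdha: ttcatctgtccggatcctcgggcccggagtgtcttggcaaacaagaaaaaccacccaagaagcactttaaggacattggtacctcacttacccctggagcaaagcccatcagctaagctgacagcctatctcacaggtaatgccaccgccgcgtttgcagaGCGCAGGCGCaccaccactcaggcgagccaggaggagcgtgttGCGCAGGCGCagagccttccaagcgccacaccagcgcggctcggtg
Uqcrh: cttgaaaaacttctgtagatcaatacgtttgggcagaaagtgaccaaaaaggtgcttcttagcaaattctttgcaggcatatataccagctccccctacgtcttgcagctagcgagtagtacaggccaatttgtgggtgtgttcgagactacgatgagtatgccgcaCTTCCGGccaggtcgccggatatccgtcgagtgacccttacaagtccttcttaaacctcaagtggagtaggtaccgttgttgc
Cox8a: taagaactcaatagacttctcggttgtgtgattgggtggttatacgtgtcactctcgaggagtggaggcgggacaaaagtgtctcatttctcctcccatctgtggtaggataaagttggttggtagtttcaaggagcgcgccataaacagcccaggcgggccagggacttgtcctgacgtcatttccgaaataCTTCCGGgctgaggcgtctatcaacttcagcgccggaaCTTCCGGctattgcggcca
Atp5if1: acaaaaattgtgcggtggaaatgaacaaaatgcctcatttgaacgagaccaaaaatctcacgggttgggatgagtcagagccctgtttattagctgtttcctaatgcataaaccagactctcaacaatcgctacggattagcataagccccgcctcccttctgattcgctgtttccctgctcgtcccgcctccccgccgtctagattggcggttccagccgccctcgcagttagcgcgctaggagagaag
The stretch of Sdha held 2 matches to the NRF1 motif, that of Cox8a 2 to CCGGAAG and that of Uqcrh 1 to CCGGAAG, those of CCGGAAG being on the opposite strand. Neither motif is in the stretches of Ndufb4 and Atp5if1, while in Ndufb4 a match to the NRF1 motif lies just after the start, outside the printed stretch.

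Over the full 300 bases and both strands, the NRF1 motif was in 16 of 74 (21.6%) member promoters, against 4.71% of all 27457 promoters and 10.8% of the 8211 promoters of other genes in the expression table. CCGGAAG was in 22 of 74 (29.7%), against 9.22% and 18.9%. AAGATGG, a motif of YY1, was in 18 of 74 (24.3%), against 7.29% and 8.48%. All 3 motifs were thus held by a larger share of the members than of the other genes measured. TTTC, any pair of bases and then TTTC, the core of the interferon stimulated response element, was in 1 of 74 (1.35%), against 3.77% and 2.91%. TTCNNNGAA, the site of STAT proteins, was in 6 of 74 (8.11%), against 8.68% and 6.36%. A match describes the bases in this window only, and the motifs can overlap each other.

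Complex I is the entry point of electrons from NADH. For this and the other complexes below, the counts stand beside the shares of all genes with TIC, IFNγ+TIC and IFNβ+TIC. The shares lower were 31.2%, 40.4% and 42.8% as deposited, and 27.9%, 31.1% and 29.3% after scaling. Those higher were 25.3%, 22.9% and 19.3% as deposited, and 29.2%, 31.6% and 30.3% after scaling. Of its 7 nuclear core subunits, which carry the flavin and iron-sulfur clusters or shape the quinone site, the number lower than in the controls was 6 with TIC, 7 with IFNγ+TIC and 7 with IFNβ+TIC, and after scaling 6, 7 and 7. Their median log2 change was -0.36, -0.67 and -0.68. Ndufs3, which helps form the peripheral arm, stood at 133, 137 and 145 FPKM in the controls, 91.3, 83.1 and 98.9 with TIC, 67.3, 73.4 and 73.4 with IFNγ+TIC and 76.0, 70.0 and 76.2 with IFNβ+TIC. All 9 libraries with TIC lay below the 3 controls. Its log2 change was -0.60 (SE 0.07, adjusted p = 2.0e-06) with TIC, -0.95 (SE 0.07, adjusted p = 4.2e-09) with IFNγ+TIC and -0.89 (SE 0.07, adjusted p = 1.1e-08) with IFNβ+TIC. Ndufv1, which binds NADH and the flavin, stood at 213, 192 and 206 FPKM in the controls, 144, 163 and 170.3 with TIC, 132, 127 and 123 with IFNγ+TIC and 116, 122 and 129.5 with IFNβ+TIC. Again no TIC library reached the controls. The log2 change was -0.36, -0.67 and -0.73, with adjusted p of 7.0e-04, 6.1e-07 and 2.6e-07. Ndufs1, the largest iron-sulfur subunit, changed by -0.38, -0.67 and -0.68 (adjusted p = 0.00130, 3.8e-06 and 3.5e-06). Ndufs8, another iron-sulfur subunit, was the core subunit not called with TIC, at 256, 263 and 261 FPKM in the controls and 236, 232 and 241 with TIC (log2 change -0.14, SE 0.07, adjusted p = 0.105), and it fell by 0.41 and 0.50 on the log2 scale once IFNγ or IFNβ was present as well.

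Of the 28 accessory subunits, which surround the core, the number lower was 11 with TIC, 18 with IFNγ+TIC and 20 with IFNβ+TIC, with medians of -0.17, -0.32 and -0.41. After scaling the numbers were 9, 12 and 14, and the scaled share with TIC was near the 27.9% of all genes. Ndufb4, an accessory subunit of the membrane arm whose promoter is printed above, had the largest decrease of all members with TIC. It stood at 496, 610.5 and 542 FPKM in the controls, 298, 244 and 258 with TIC, 185, 229.8 and 206 with IFNγ+TIC and 245, 238 and 246 with IFNβ+TIC. With an interferon alone the values were 466, 473 and 475 FPKM for IFNγ and 535, 476 and 587 for IFNβ. The libraries with IFNβ alone overlapped the controls, those with IFNγ alone lay just below them without a call, and the 9 with TIC lay below all others. The log2 change was -1.04 (SE 0.09, adjusted p = 5.6e-08) with TIC, -1.41 (SE 0.09, adjusted p = 6.8e-10) with IFNγ+TIC and -1.17 (SE 0.09, adjusted p = 1.0e-08) with IFNβ+TIC. Ndufb10, also of the membrane arm, changed by -0.49, -0.77 and -0.62. Ndufa9, which lies at the joint of both arms, changed by -0.31, -0.48 and -0.66. By limma the call was missed in all 5 comparisons with the controls by 6 accessory subunits, Ndufa1, Ndufa5, Ndufa12, Ndufab1, Ndufb3 and Ndufb7. The authors' deposited table has Ndufa12 higher with TIC and IFNγ+TIC (log2 change 0.30 and 0.24, adjusted p = 0.0463 and 0.0110). It also has Ndufab1 higher with IFNβ+TIC (0.39, adjusted p = 0.0174). Ndufb3 and Ndufb7 are higher there with IFNβ alone (0.35 and 0.45, adjusted p = 0.00315 and 3.3e-04). Ndufa1 was at 171, 198 and 189.7 FPKM in the controls, 237, 169.9 and 178 with TIC, 171, 187 and 183 with IFNγ+TIC and 174, 189 and 189.8 with IFNβ+TIC, and each group overlapped the controls. Its log2 change was 0.05 (SE 0.10, adjusted p = 0.697) with TIC and -0.01 (SE 0.10, adjusted p = 0.918) with IFNβ+TIC. Ndufab1, the acyl carrier protein of mitochondria, was at 57.7, 74.2 and 46.4 FPKM in the controls and 68.8, 64.8 and 60.6 with IFNβ+TIC (log2 change 0.15, SE 0.15, adjusted p = 0.415).

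The complex I assembly factors went in several directions. Of the 7, 2 rose and 1 fell with TIC, 1 rose and 1 fell with IFNγ+TIC, and 2 rose and 2 fell with IFNβ+TIC. Ndufaf4, an early assembly factor, stood at 20.3, 22.9 and 17.1 FPKM in the controls, 39.0, 34.5 and 30.1 with TIC, 35.0, 31.8 and 30.4 with IFNγ+TIC and 40.0, 30.6 and 29.6 with IFNβ+TIC. The 9 libraries with TIC lay above the 3 controls. The log2 change was 0.75 (SE 0.18, adjusted p = 0.00182), 0.67 (SE 0.18, adjusted p = 0.00369) and 0.70 (SE 0.18, adjusted p = 0.00270) in that order. With IFNγ or IFNβ alone it stood at 14.0, 24.0 and 18.1 and 15.5, 22.3 and 23.9 FPKM, which overlapped the controls. Ndufaf5, which hydroxylates a core subunit during assembly, changed by 0.29 with TIC (adjusted p = 0.0181) and 0.29 with IFNβ+TIC (adjusted p = 0.0173). Both calls were lost without Control 1 and also without TIC 3 or IFNβ+TIC 1, with adjusted p up to 0.0984. Ndufaf5 was also the 1 member called higher with IFNβ alone, by 0.35 (SE 0.10, adjusted p = 0.0109). Its levels there were 30.6, 29.2 and 23.8 FPKM, beside 19.9, 21.6 and 23.2 in the controls. In fits without Control 1 or without IFNβ 1, no member was called higher with IFNβ. The authors' deposited table has Ndufaf5 higher with IFNβ, TIC, IFNγ+TIC and IFNβ+TIC (0.55, 0.40, 0.43 and 0.53, adjusted p = 1.4e-04, 0.00375, 2.8e-04 and 1.1e-04). Ndufaf6 was lower with TIC by 0.52 on the log2 scale (adjusted p = 0.00789), at 11.8, 9.74 and 11.9 FPKM, and did not overlap the controls. Ndufaf7, a methyltransferase of a core subunit, was at 23.4, 20.3 and 19.7 FPKM in the controls and 15.2, 14.6 and 11.9 with IFNβ+TIC, without overlap (log2 change -0.57, SE 0.11, adjusted p = 1.6e-04).

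Complex II, which joins the tricarboxylic acid cycle to the chain, had all 4 subunits lower in the 3 groups with TIC, as deposited and after scaling. The median log2 change of the 4 was -0.52, -0.63 and -0.69. Sdha, the flavoprotein that oxidises succinate, stood at 312, 277 and 287 FPKM in the controls, 180.0, 176 and 186 with TIC, 155, 154 and 149 with IFNγ+TIC and 162, 155 and 158 with IFNβ+TIC. Sdhb, the iron-sulfur subunit, stood at 326, 316 and 348 FPKM in the controls, 275, 269.8 and 269.7 with TIC, 246, 253 and 252 with IFNγ+TIC and 235, 239 and 254 with IFNβ+TIC. No library with TIC reached a control in either gene. Sdhc, which anchors the enzyme in the membrane, stood at 564, 559 and 559 FPKM in the controls, 369, 400.4 and 429 with TIC, 368, 370.4 and 375 with IFNγ+TIC and 360.2, 341 and 389 with IFNβ+TIC. Its partner Sdhd stood at 196, 227 and 196 FPKM in the controls, 146, 126 and 149 with TIC, 127, 135 and 126 with IFNγ+TIC and 125, 122 and 118 with IFNβ+TIC. The anchors behaved alike in that their TIC libraries also lay below all controls. With TIC the log2 change was -0.69 (SE 0.07, adjusted p = 1.7e-07) for Sdha, -0.28 (SE 0.06, adjusted p = 4.1e-04) for Sdhb, -0.49 (SE 0.08, adjusted p = 2.8e-05) for Sdhc and -0.55 (SE 0.07, adjusted p = 3.4e-06) for Sdhd. With IFNβ+TIC it was -0.88 (SE 0.07, adjusted p = 6.5e-09), -0.44 (SE 0.06, adjusted p = 2.6e-06), -0.63 (SE 0.08, adjusted p = 1.5e-06) and -0.76 (SE 0.07, adjusted p = 5.8e-08), and with IFNγ+TIC it was -0.93, -0.40, -0.60 and -0.67. Sdhb thus had the smallest of the 4 changes in each of these groups. With IFNβ alone Sdha was at 257, 236 and 209 FPKM, below the 3 controls, with a log2 change of -0.32 (SE 0.07, adjusted p = 0.00149) and an adjusted p of 0.0508 after scaling, and the other 3 subunits were not called.

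Complex III, which passes electrons from ubiquinol to cytochrome c, had 8 subunits measured, of which the number lower was 5 with TIC, 8 with IFNγ+TIC and 7 with IFNβ+TIC, and after scaling 3, 5 and 6. Its medians were -0.28, -0.52 and -0.60. Uqcrh, the hinge protein that bridges to cytochrome c, had the largest decrease of all members with IFNβ+TIC. It stood at 159, 175 and 168 FPKM in the controls, 115, 106 and 111 with TIC, 83.5, 90.4 and 82.8 with IFNγ+TIC and 61.8, 72.0 and 67.5 with IFNβ+TIC. With an interferon alone the values were 158, 171 and 163 FPKM for IFNγ and 122, 109 and 113 for IFNβ. Its libraries formed a descending series, since those with IFNγ overlapped the controls, those with IFNβ or with TIC lay below them, and those with IFNγ+TIC and then IFNβ+TIC lay lower again without overlap. The log2 change was -0.54 (SE 0.07, adjusted p = 1.0e-05) with IFNβ, -0.59 (SE 0.07, adjusted p = 1.0e-06) with TIC, -0.96 (SE 0.07, adjusted p = 1.3e-09) with IFNγ+TIC and -1.31 (SE 0.07, adjusted p = 2.5e-11) with IFNβ+TIC. Uqcr11, a small subunit, stood at 210.5, 216 and 244 FPKM in the controls, 156, 139.6 and 149 with TIC, 122, 117 and 141 with IFNγ+TIC and 106, 99.96 and 142 with IFNβ+TIC, with all TIC libraries below the controls and log2 changes of -0.59, -0.82 and -0.96. Uqcrfs1, the Rieske iron-sulfur protein, changed by -0.19, -0.47 and -0.55 (adjusted p = 0.0240, 7.9e-06 and 1.6e-06), and its call with TIC alone was lost after scaling (adjusted p = 0.0997) and without Control 1, Control 3, TIC 1 or TIC 2 (adjusted p up to 0.115). Uqcrc1, the most abundant subunit, was not called with TIC (log2 change -0.14, SE 0.08, adjusted p = 0.139) and changed by -0.32 and -0.47 where an interferon was added, with the change under IFNγ+TIC not called after scaling (adjusted p = 0.111). Uqcrq was at 105, 106 and 124 FPKM in the controls and 117, 105 and 111 with TIC, with overlapping ranges.

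Complex IV, cytochrome c oxidase, had 14 subunits measured, of which the number lower was 6 with TIC, 9 with IFNγ+TIC and 10 with IFNβ+TIC, with medians of -0.14, -0.31 and -0.43, and after scaling 4, 5 and 6. The scaled shares with TIC and with IFNγ+TIC were near the 27.9% and 31.1% of all genes. Cox8a, the highest of its complex in the controls, stood at 758, 780.0 and 805 FPKM in the controls, 461, 417 and 431 with TIC, 308, 364 and 374 with IFNγ+TIC and 311, 343 and 335 with IFNβ+TIC. With an interferon alone the values were 734, 686 and 704 FPKM for IFNγ and 658, 526 and 615 for IFNβ. All libraries with IFNγ, IFNβ or TIC lay below the 3 controls, those with IFNγ alone without a call. The log2 change was -0.39 (SE 0.08, adjusted p = 0.00156) with IFNβ, -0.84 (SE 0.08, adjusted p = 1.6e-07) with TIC, -1.17 (SE 0.08, adjusted p = 1.4e-09) with IFNγ+TIC and -1.24 (SE 0.08, adjusted p = 7.3e-10) with IFNβ+TIC. The authors' deposited table did not call Cox8a with IFNβ alone (log2 change -0.19, adjusted p = 0.143). Cox4i1, the regulatory subunit 4, stood at 347, 354 and 379.7 FPKM in the controls, 257, 250.4 and 289 with TIC, 239, 257 and 246 with IFNγ+TIC and 205, 235 and 254 with IFNβ+TIC, again with no overlap, and changed by -0.44, -0.54 and -0.64. Cox7a2 changed by -0.44, -0.50 and -0.58. Cox6a1 was not called with TIC and changed by -0.31 and -0.40 where an interferon was added, which was not called after scaling (adjusted p = 0.156 and 0.0663). Beside these, Cox5a and Cox7c were not called by limma in any of the 5 comparisons with the controls. The authors' deposited table has Cox7c higher with IFNγ+TIC (log2 change 0.19, adjusted p = 0.0110). Cox5a was at 144, 156 and 160.1 FPKM in the controls, 163, 136 and 158 with TIC and 145, 147 and 126 with IFNβ+TIC (log2 change -0.14, SE 0.09, adjusted p = 0.195), and Cox7c had a log2 change of -0.06 (SE 0.10, adjusted p = 0.627) there. The log2 changes of the subunits of this enzyme ranged from -1.24 to 0.37 with IFNβ+TIC, the latter value being that of the low tissue isoform Cox4i2, which was not called.

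Among the low isoforms, Cox6b2 stood at 7.11, 12.4 and 7.31 FPKM in the controls, 5.88, 6.89 and 4.99 with TIC, 2.50, 4.56 and 3.87 with IFNγ+TIC and 3.56, 3.38 and 3.38 with IFNβ+TIC. All 9 TIC libraries lay below the controls, with log2 changes of -0.49 (SE 0.19, adjusted p = 0.0344), -1.08 (SE 0.19, adjusted p = 7.7e-05) and -1.12 (SE 0.19, adjusted p = 5.9e-05). The call with TIC alone was lost after scaling and in 3 of 6 fits that each left out 1 library of either group, with adjusted p up to 0.224 without Control 2. Cox6a2 was listed at 0 in Control 3, IFNγ 1, IFNγ 3 and IFNβ 3 and was not called against the controls in any group. Cox7a2l, which helps join complexes III and IV into supercomplexes, was at 89.7, 98.0 and 105 FPKM in the controls, 93.7, 90.9 and 99.1 with TIC and 71.2, 80.9 and 74.6 with IFNβ+TIC. The last of these did not overlap the controls (log2 change -0.36, SE 0.07, adjusted p = 3.2e-04), and it was not called after scaling (adjusted p = 0.107). Ndufa4, named as a complex I protein and now placed with complex IV, stood at 377, 409 and 421 FPKM in the controls, 352, 275 and 319.9 with TIC, 241, 284 and 291 with IFNγ+TIC and 270.1, 273 and 288 with IFNβ+TIC. It did not overlap the controls with TIC and changed by -0.36 (SE 0.09, adjusted p = 0.00400), -0.57 (SE 0.09, adjusted p = 5.1e-05) and -0.54 (SE 0.09, adjusted p = 9.9e-05).

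**Figure D3:**
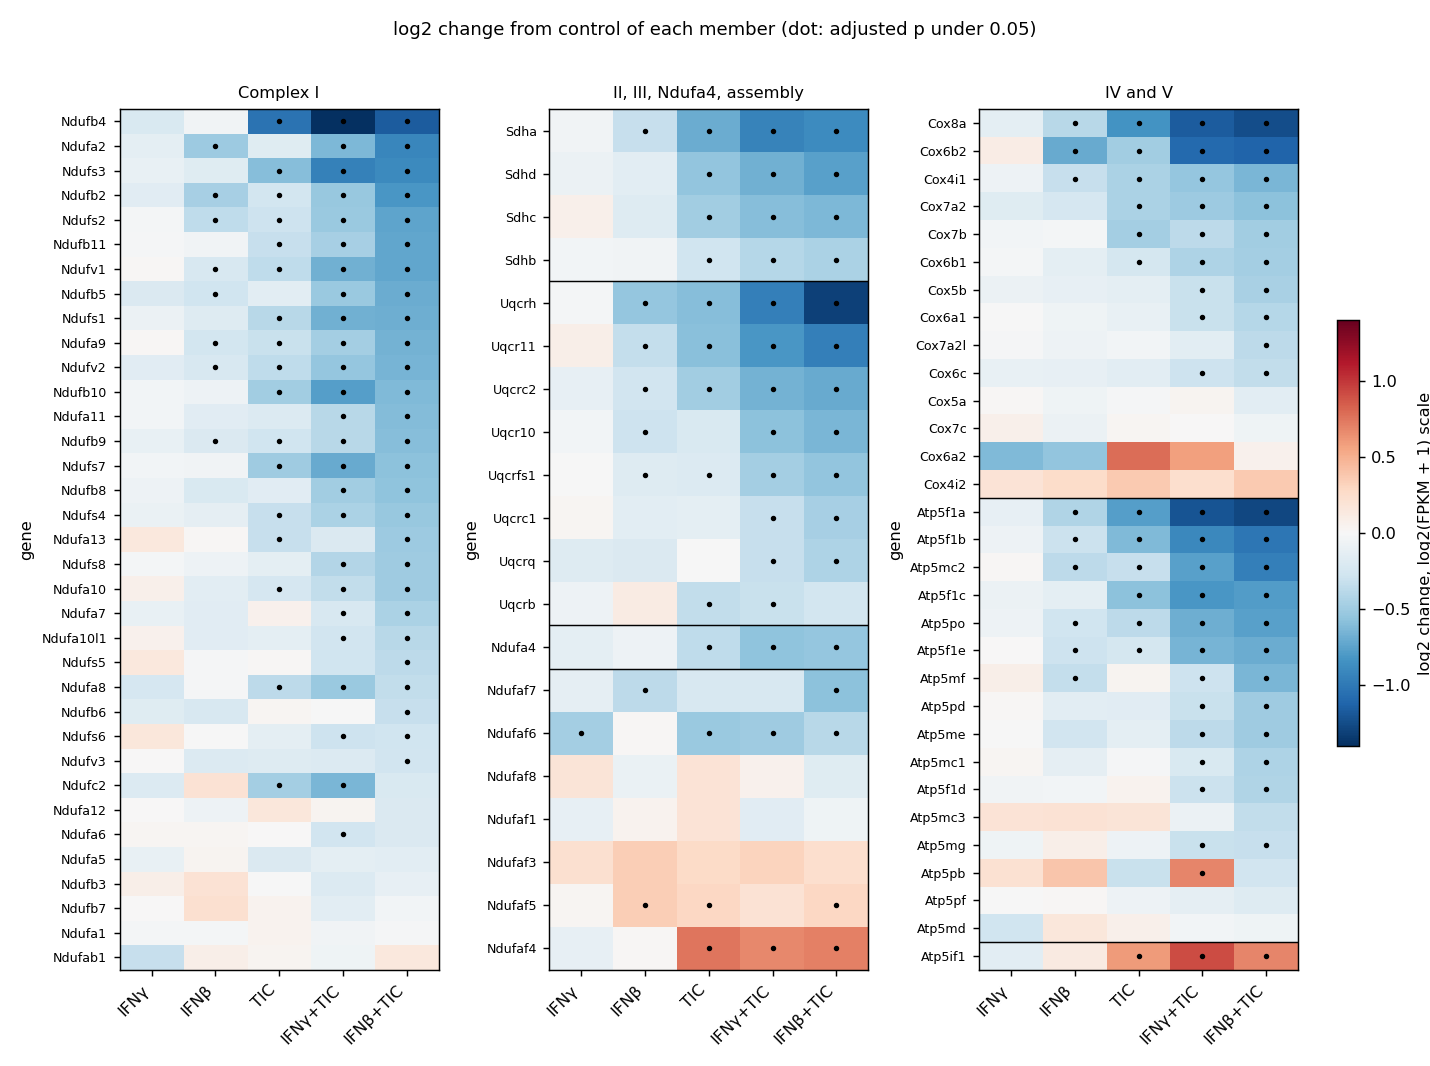
Log2 change of each of the 86 members against the controls in the 5 treated groups, with a dot on changes with an adjusted p under 0.05. Members are grouped by complex and ordered within it by their log2 change with IFNβ+TIC. Most members of the core of complex I, of complexes II and III and of the F1 head were lower in the 3 columns with TIC, and Atp5if1 and Ndufaf4 were higher there.

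Complex V had 16 subunits measured, of which the number lower was 6 with TIC, 12 with IFNγ+TIC and 12 with IFNβ+TIC, or 5, 6 and 10 after scaling, and 1 was higher with IFNγ+TIC. The scaled shares lower with TIC and with IFNγ+TIC were near the 27.9% and 31.1% of all genes. Of the 5 subunits of the F1 head, which holds the catalytic sites, the number lower was 4 with TIC, 5 with IFNγ+TIC and 5 with IFNβ+TIC, and after scaling 3, 4 and 5, with medians of -0.58, -0.81 and -0.79. Atp5f1a, the alpha subunit, stood at 781, 668 and 746 FPKM in the controls, 405, 427 and 449 with TIC, 315, 320.3 and 312 with IFNγ+TIC and 293, 299 and 310.3 with IFNβ+TIC. Atp5f1b, the catalytic beta subunit, stood at 1530.2, 1404 and 1538 FPKM in the controls, 929.6, 996 and 989.7 with TIC, 809, 804 and 783 with IFNγ+TIC and 722, 741 and 751 with IFNβ+TIC. In both genes the 9 TIC libraries lay below every control. For Atp5f1a the log2 change was -0.77 (SE 0.07, adjusted p = 2.6e-08) with TIC, -1.21 (SE 0.07, adjusted p = 4.3e-11) with IFNγ+TIC and -1.28 (SE 0.07, adjusted p = 2.6e-11) with IFNβ+TIC. For Atp5f1b it was -0.62 (SE 0.06, adjusted p = 4.6e-08), -0.90 (SE 0.06, adjusted p = 2.0e-10) and -1.01 (SE 0.06, adjusted p = 5.0e-11). Under IFNβ alone the pair stood at 589.6, 533 and 519 and at 1277, 1184 and 1159.9 FPKM, also below the controls, with log2 changes of -0.42 (SE 0.07, adjusted p = 1.2e-04) and -0.30 (SE 0.06, adjusted p = 4.0e-04). The authors' deposited table called neither gene with IFNβ alone (log2 change -0.21 and -0.10, adjusted p = 0.0539 and 0.380). Atp5f1c, the central stalk gamma subunit, changed by -0.58, -0.81 and -0.79. Atp5f1d, the delta subunit of the same stalk, was at 320.5, 311 and 337 FPKM in the controls and 329, 332 and 341 with TIC, with overlapping ranges, and it fell by 0.30 and 0.42 on the log2 scale with IFNγ+TIC and with IFNβ+TIC, the former not called after scaling (adjusted p = 0.112).

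The c ring, through which protons pass, is built from 1 protein encoded by the 3 genes Atp5mc1, Atp5mc2 and Atp5mc3, whose mature products are the same. Atp5mc2, the highest of the 3 in the controls, stood at 539.7, 528 and 602 FPKM in the controls, 458, 409.5 and 465 with TIC, 315, 331 and 341 with IFNγ+TIC and 259, 302 and 299.997 with IFNβ+TIC. The TIC libraries lay below all controls, and the log2 change was -0.33 (SE 0.08, adjusted p = 0.00284), -0.76 (SE 0.08, adjusted p = 3.7e-07) and -0.95 (SE 0.08, adjusted p = 2.3e-08). Atp5mc3 stood at 305, 353 and 312 FPKM in the controls, 425, 337 and 346 with TIC, 304, 309.6 and 299 with IFNγ+TIC and 265, 292 and 210.4 with IFNβ+TIC, with no call against the controls in any group. The share of Atp5mc2 in the FPKM of the 3 genes was 46.8% ± 2.50 (SD, n = 3) in the controls, 45.1% ± 2.09 with IFNγ and 39.6% ± 3.23 with IFNβ. It was 39.7% ± 1.85 with TIC, 36.6% ± 0.594 with IFNγ+TIC and 37.1% ± 1.80 with IFNβ+TIC, and this ratio within a library does not depend on the scaling. In the peripheral stalk, which holds the head still, Atp5po was lower in all 3 groups (-0.36, -0.68 and -0.76) and Atp5pf in none (log2 change -0.18, SE 0.09, adjusted p = 0.114 with IFNβ+TIC). Of the 4 small membrane subunits, 3 were lower with IFNγ+TIC and 3 with IFNβ+TIC, and after scaling 0 and 1. With TIC alone 0 were lower by limma, and the unadjusted p was under 0.05 for 0.

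Atp5pb, another stalk subunit, was the only member called higher with IFNγ+TIC outside the assembly factors and the inhibitor. It stood at 235, 257 and 212 FPKM in the controls, 210.1, 216 and 437 with IFNγ, 231, 514 and 239 with IFNβ, 211, 171 and 185 with TIC, 387, 377 and 368 with IFNγ+TIC and 203, 189 and 189 with IFNβ+TIC. A single library with IFNγ alone and a single one with IFNβ alone stood above those with IFNγ+TIC, while the others of those groups stood near the controls. The log2 change with IFNγ+TIC was 0.69 (SE 0.26, adjusted p = 0.0290), and the call was kept in 1 of 6 fits that each left out 1 library, with adjusted p up to 0.0838. It was lost without Control 1, without Control 3 and without each of the libraries with IFNγ+TIC. In the authors' deposited table the log2 change of Atp5pb in this comparison was 0.000342.

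Atp5if1, the inhibitor protein that blocks ATP hydrolysis by the synthase when the proton gradient fails, went the other way. It stood at 351, 532 and 461 FPKM in the controls, 799, 591 and 626 with TIC, 773, 851 and 876 with IFNγ+TIC and 701, 782 and 652 with IFNβ+TIC. With an interferon alone the values were 348, 451 and 406 FPKM for IFNγ and 436, 450.2 and 565 for IFNβ. The 9 libraries with TIC lay above all controls, and those with an interferon alone did not leave the range of the controls as a group. The log2 change was 0.59 (SE 0.15, adjusted p = 0.00239) with TIC, 0.91 (SE 0.15, adjusted p = 3.5e-05) with IFNγ+TIC and 0.68 (SE 0.15, adjusted p = 6.5e-04) with IFNβ+TIC. The calls held after scaling, without the filter, with the pseudocount of 0.1 and in every fit that left out 1 library of the groups compared. Measured against the F1 head in the same libraries, Atp5if1 averaged 448 FPKM beside 1491 FPKM of Atp5f1b in the controls, and 833 beside 799 FPKM with IFNγ+TIC.

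**Figure D4:**
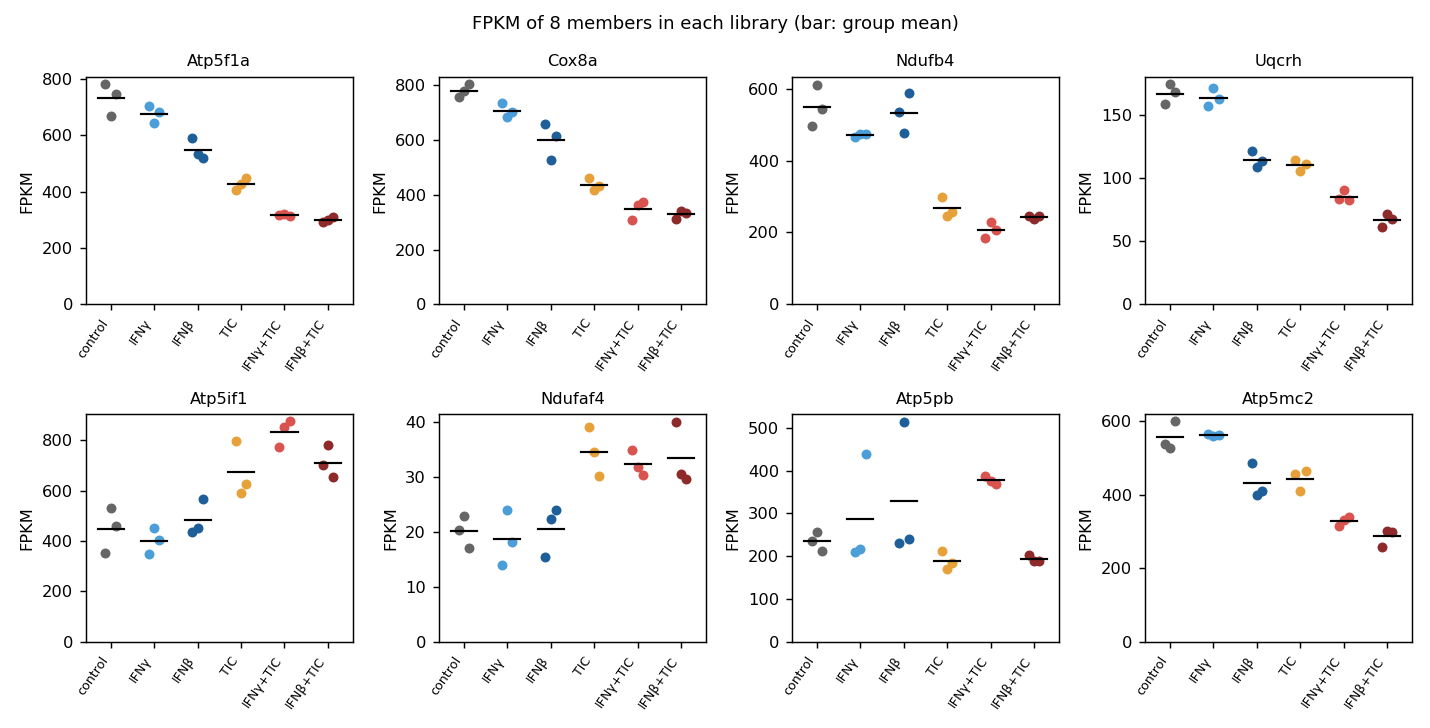
FPKM of Atp5f1a, Cox8a, Ndufb4, Uqcrh, Atp5if1, Ndufaf4, Atp5pb and Atp5mc2 in every library, with 1 point per library and a bar at the mean of the 3 libraries of each group. Atp5f1a, Cox8a, Ndufb4, Uqcrh and Atp5mc2 lay below the controls in the 9 libraries with TIC, Atp5if1 and Ndufaf4 lay above them, and Atp5pb was split between libraries with the same interferon.

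Within the members, those with higher mean levels tended to have the lower log2 changes, with Spearman's rho across the 86 genes of -0.24, -0.25 and -0.24 with TIC, IFNγ+TIC, and IFNβ+TIC. Across all 10298 genes tested rho was 0.17, 0.16 and 0.15. These are descriptions across genes, which share libraries and are not independent.

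**Figure D5:**
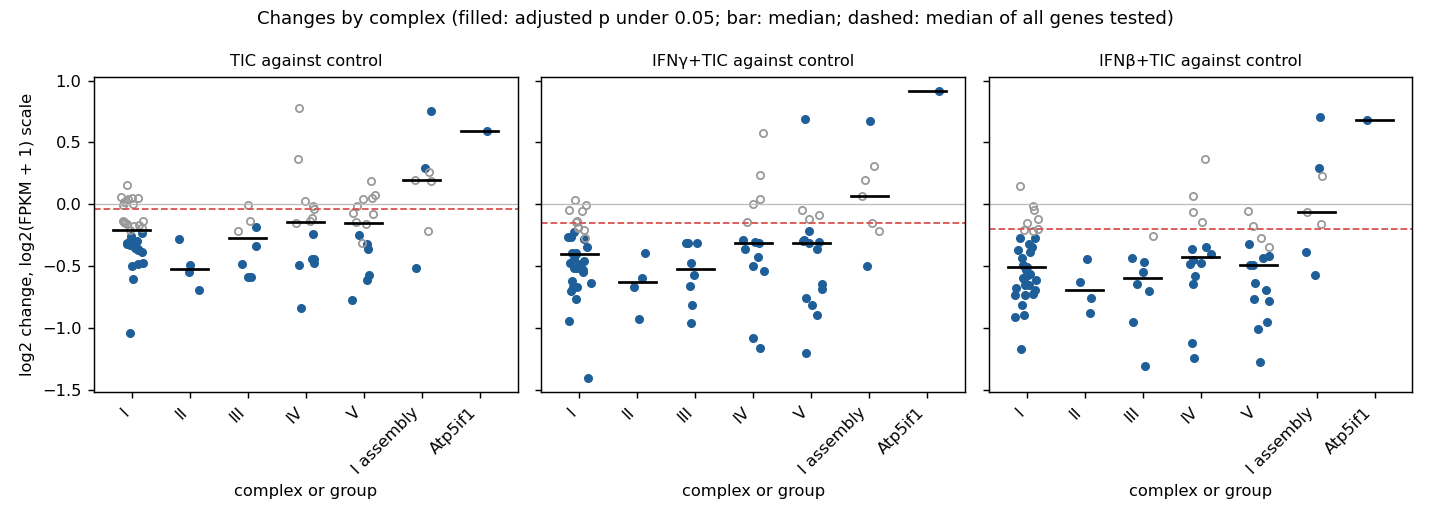
Log2 change against the controls of the members of each complex with TIC, IFNγ+TIC, and IFNβ+TIC, with 1 point per gene (filled where the adjusted p was under 0.05), a bar at the median of the complex and a dashed line at the median of all genes tested. The medians of complex II lay at -0.52, -0.63 and -0.69 and those of complex IV at -0.14, -0.31 and -0.43.

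Adding an interferon to TIC was compared with TIC alone. With IFNγ, 30 members (34.9%) were lower and 1 was higher than with TIC alone, against 21.8% and 7.42% of all genes. With IFNβ, 48 (55.8%) were lower and 0 higher by limma, against 31.5% and 9.86%, and no member was higher at an unadjusted p under 0.05. After scaling the numbers lower were 8 and 21 (9.30% and 24.4%), beside 11.9% and 16.5% of all genes, so that with IFNγ the scaled share was below that of all genes. The members' median was -0.19 and -0.28, and after scaling -0.07 and -0.11. Ndufa2, a small thioredoxin-like subunit of complex I, stood at 144, 128 and 132 FPKM with TIC, 86.8, 104 and 104 with IFNγ+TIC and 73.3, 86.3 and 80.2 with IFNβ+TIC. Neither combined group overlapped TIC alone, and the log2 change was -0.45 (SE 0.10, adjusted p = 0.00321) and -0.74 (SE 0.10, adjusted p = 2.2e-05). Ndufa2 with TIC alone overlapped the controls, at 137, 151 and 167 FPKM. With IFNβ alone it stood at 116, 89.2 and 117 FPKM, below the controls (log2 change -0.50, SE 0.10, adjusted p = 0.00109). The authors' deposited table did not call Ndufa2 with IFNβ alone (log2 change -0.29, adjusted p = 0.0816). Uqcrh was lower than with TIC alone by 0.37 with IFNγ and 0.72 with IFNβ on the log2 scale (adjusted p = 5.6e-04 and 2.6e-07). Atp5mf, a small membrane subunit of complex V, changed by -0.68 (SE 0.11, adjusted p = 1.6e-04) with IFNβ. With IFNγ its log2 change was -0.33 (SE 0.11, adjusted p = 0.0405), a call lost after scaling and without TIC 1, TIC 3, IFNγ+TIC 1 or IFNγ+TIC 3, with adjusted p up to 0.215.

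The 2 interferons were also set against each other. With IFNβ, 18 members (20.9%) were lower and 2 higher than with IFNγ, against 19.3% and 5.77% of all genes. After scaling the counts turned to 5 lower and 7 higher, against 10.4% and 9.07%, and the median went from -0.07 to 0.04. The count also rested on single libraries, being 8 without IFNβ 2, 11 without IFNγ 1 and 12 without IFNγ 3. Cox6b2 had the largest difference (log2 change -0.81, SE 0.19, adjusted p = 0.00469). Uqcrh was at 158, 171 and 163 FPKM with IFNγ and 122, 109 and 113 with IFNβ, without overlap (log2 change -0.51, SE 0.07, adjusted p = 3.0e-05). In the presence of TIC, 9 members (10.5%) were lower and 1 higher with IFNβ than with IFNγ, against 12.7% and 9.72%, and after scaling 4 and 2, against 10.2% and 11.7%. The count fell to 5 without IFNγ+TIC 2, and to 4 without IFNγ+TIC 3 or without IFNβ+TIC 1. Uqcrh was lower there too, by 0.35 on the log2 scale (SE 0.07, adjusted p = 0.00113).

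Whether an interferon acted differently on TIC than on untreated cells was tested as an interaction, taken as the log2 change it gave in the presence of TIC less the one it gave alone. For IFNγ, 4 members had a lower value on TIC and 0 a higher one by limma, against 10.2% and 3.63% of all genes. At an unadjusted p under 0.05 the numbers were 20 and 3. The 4 were Atp5mc2 (-0.45, SE 0.12, adjusted p = 0.0160), Uqcrh (-0.34, SE 0.10, adjusted p = 0.0254), Atp5f1a (-0.32, SE 0.09, adjusted p = 0.0304) and Atp5f1d (-0.30, SE 0.10, adjusted p = 0.0475). For Atp5mc2, IFNγ alone left the level at 565, 561 and 563 FPKM beside 539.7, 528 and 602 in the controls, while on TIC it went from 458, 409.5 and 465 to 315, 331 and 341 FPKM. After scaling 1 was called, Atp5mc2 (adjusted p = 0.0361), beside 7.14% of all genes, and without scaling the count was 1 without TIC 3, IFNγ+TIC 1 or IFNγ+TIC 3, 2 without IFNγ 1 or TIC 2, and 7 without Control 3. For IFNβ, 2 members had a lower value on TIC and 0 a higher one, against 8.66% and 7.16%, with 14 and 0 at an unadjusted p under 0.05. The pair was Atp5mc3 (-0.74, SE 0.21, adjusted p = 0.0242) and Atp5f1d (-0.42, SE 0.10, adjusted p = 0.00701), and the count was 1 without Control 1 or TIC 1 and 6 without IFNβ 2. Of the members called, Uqcrh belongs to complex III and the others to complex V, and the shares lower, 4.65% and 2.33% of the members, were below those of all genes.

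Counted in either direction, the members called against the controls with TIC were 43 as deposited and 36 after scaling, beside 56.5% and 57.1% of all genes, so that their share was below that of all genes both times, although the share lower on its own was above it. With IFNγ+TIC they were 63 as deposited and 45 after scaling, beside 63.3% and 62.7% of all genes, a share above that of all genes as deposited and below it after scaling. With IFNβ+TIC they were 66 as deposited and 53 after scaling, beside 62.1% and 59.6% of all genes. For IFNγ alone the same counts were 1 as deposited and 0 after scaling, beside 14.3% and 13.7% of all genes, and for IFNβ alone 25 as deposited and 13 after scaling, beside 38.0% and 30.3% of all genes. With either interferon alone the share of members was below that of all genes. Against TIC alone, IFNγ+TIC gave 31 as deposited and 10 after scaling, beside 29.2% and 22.5% of all genes, and IFNβ+TIC gave 48 as deposited and 22 after scaling, beside 41.4% and 32.2% of all genes, with shares above those of all genes as deposited and below them after scaling. Of the scaled calls 2 and 1 were higher, where 10.6% and 15.7% of all genes were. Between the interferons the counts were 20 as deposited and 12 after scaling, beside 25.1% and 19.5% of all genes, and in the presence of TIC 10 as deposited and 6 after scaling, beside 22.4% and 21.9% of all genes. These shares of members lay below those of all genes. The interaction gave 4 as deposited and 1 after scaling, beside 13.8% and 11.9% of all genes for IFNγ, and 2 as deposited and 2 after scaling, beside 15.8% and 15.6% of all genes for IFNβ. After scaling 0 members had a higher value on TIC for IFNγ, beside 4.75%, and for IFNβ 2 were lower and 0 higher, beside 8.02% and 7.55%.

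Other mitochondrial genes were described from lists in the same way. The counts of every list stand beside the shares of all genes with TIC, IFNγ+TIC and IFNβ+TIC. The shares lower were 31.2%, 40.4% and 42.8% as deposited, and 27.9%, 31.1% and 29.3% after scaling. Those higher were 25.3%, 22.9% and 19.3% as deposited, and 29.2%, 31.6% and 30.3% after scaling. Of 22 genes of the tricarboxylic acid cycle and pyruvate use, 15 were lower and 0 higher with TIC, 17 and 1 with IFNγ+TIC, and 19 and 2 with IFNβ+TIC, and after scaling the numbers were 14 and 0, 14 and 2, and 17 and 2. Their medians of -0.41, -0.74 and -0.79 lay below those of the members. Pc, pyruvate carboxylase, changed by -1.49, -1.68 and -2.22, and the pyruvate dehydrogenase kinases Pdk2 and Pdk4 by -1.67, -2.25 and -2.16 and by -2.37, -2.07 and -1.99. Acod1, which makes itaconate from the cycle's aconitate, rose by 1.75 with IFNγ and 2.11 with IFNγ+TIC (adjusted p = 6.3e-08 and 7.2e-10). Of 7 electron carriers and subunits outside the naming rule, 5 were lower and 1 higher with TIC, 5 and 1 with IFNγ+TIC, and 5 and 1 with IFNβ+TIC, and after scaling the numbers were 4 and 1, 4 and 1, and 5 and 1. Cyc1, the cytochrome c1 of complex III, changed by -0.38, -0.61 and -0.72, beside -0.48, -0.66 and -0.70 for Uqcrc2 of the same complex.

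Of 36 assembly factors of complexes I to V other than the Ndufaf genes, 14 were lower and 4 higher with TIC, 20 and 3 with IFNγ+TIC, and 18 and 4 with IFNβ+TIC, and after scaling the numbers were 11 and 5, 14 and 5, and 12 and 9. The scaled shares lower with TIC and with IFNβ+TIC were near the 27.9% and 29.3% of all genes. Cox17, a copper chaperone of complex IV, and Uqcc2 and Sdhaf1, which serve complexes III and II, were higher with TIC by 0.70, 0.91 and 0.67 on the log2 scale (adjusted p = 3.3e-05, 2.8e-07 and 1.8e-05), while Cox8a, Uqcrh and Sdha of those complexes were lower. Of 71 mitochondrial ribosomal proteins, 10 were lower and 18 higher with TIC, 26 and 12 with IFNγ+TIC, and 22 and 7 with IFNβ+TIC, and after scaling the numbers were 10 and 22, 10 and 24, and 9 and 28, so that the balance of this list turned with the scaling in the groups with both an interferon and TIC. Of 20 import proteins, 3 were lower and 9 higher with TIC, 7 and 4 with IFNγ+TIC, and 8 and 3 with IFNβ+TIC, and after scaling the numbers were 3 and 9, 3 and 8, and 3 and 9, and here too the balance turned. The members kept more lower than higher under both scalings in the 3 groups with TIC. The 13 subunits encoded by mitochondrial DNA were not analysed here.

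Of 16 regulators of mitochondrial biogenesis, 3 were lower and 4 higher with TIC, 5 and 2 with IFNγ+TIC, and 7 and 1 with IFNβ+TIC, and after scaling the numbers were 3 and 6, 3 and 3, and 4 and 3. Ppargc1a, a coactivator known to drive respiratory chain genes, stood at 16.8, 14.8 and 16.3 FPKM in the controls, 1.96, 1.56 and 1.78 with TIC, 1.14, 1.51 and 1.47 with IFNγ+TIC and 2.02, 1.78 and 1.84 with IFNβ+TIC. It did not overlap the controls and changed by -2.62, -2.84 and -2.56. Polg, the polymerase of mitochondrial DNA, changed by -0.87, -1.20 and -1.06, and Hif1a, the oxygen-sensitive factor, by 0.57, 0.71 and 0.47. The transcription factors Nrf1, Gabpa and Yy1, whose motifs are described above, had log2 changes under TIC of -0.17 (SE 0.14, adjusted p = 0.302), 0.38 (SE 0.10, adjusted p = 0.00421) and 0.22 (SE 0.11, adjusted p = 0.105). Of 11 genes of fission, fusion and mitophagy, 5 were lower and 2 higher with TIC, 7 and 1 with IFNγ+TIC, and 7 and 0 with IFNβ+TIC, and after scaling the numbers were 5 and 2, 5 and 1, and 3 and 2. Pink1, a kinase that marks damaged mitochondria, changed by -1.17, -1.48 and -1.33. Of 8 genes of nucleotide exchange, uncoupling and antioxidant defence, 2 were lower and 3 higher with TIC, 5 and 2 with IFNγ+TIC, and 4 and 1 with IFNβ+TIC, and after scaling the numbers were 2 and 3, 3 and 2, and 3 and 1. Sod2, the manganese superoxide dismutase, stood at 163, 190.3 and 201 FPKM in the controls, 1595, 1657 and 1675 with TIC, 1950.4, 1977 and 2036 with IFNγ+TIC and 852, 1001 and 919.7 with IFNβ+TIC, and rose by 3.15, 3.43 and 2.32. Ucp2, a carrier of the uncoupling protein family, changed by -0.96, -0.85 and -1.18.

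The 5 comparisons with the controls can also be read from the authors' deposited table, which gives a log2 change and an adjusted p for each gene. At an adjusted p under 0.05 the authors' deposited table gave 29 lower and 4 higher of 83 members with values for TIC, where it gave 26.6% of all its genes lower and 28.4% higher. For IFNγ+TIC the authors' deposited table gave 40 lower and 5 higher of 83, against 31.0% and 32.8%. For IFNβ+TIC it was 43 lower and 4 higher of 83 in the authors' deposited table, against 26.6% and 30.2%. For IFNβ alone the authors' deposited table gave 2 lower and 5 higher of 81, against 12.2% and 15.8%, and limma on the deposited FPKM gave 24 and 1. For IFNγ alone it gave 0 lower and 0 higher of 82, against 5.18% and 8.32%. Of the members the authors' deposited table called lower, 29 of 29, 40 of 40 and 43 of 43 were also called lower by limma with TIC, with IFNγ+TIC and with IFNβ+TIC. Of those it called higher, 3 of 4, 2 of 5 and 3 of 4 were also called higher by limma. Both sets of calls come from the same libraries, and limma called more members lower (40, 60 and 63). The overlap is therefore not separate evidence.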

How the data were processed

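RNA sequencing was analysed in 18 libraries of rat astrocytes, 3 in each of 6 groups. Per the labels' protocols, an Agilent kit gave the RNA, SMART-seq HT the cDNA and Nextera XT the libraries, which a NovaSeq6000 read. The tools were HISAT2, StringTie and DESeq2 and the build mm10, per the submitters' processing notes. That build is of mouse, while the genes carry rat Ensembl identifiers, and the build behind the values could not be settled. Tool versions and counting rules were not given in the sources used here. The series title names mouse brain and the labels name rat.

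Per the file headers, the deposited FPKM, one value per gene and library, stand beside the authors' log2 fold changes and adjusted p-values. Spreadsheet error text in the authors' deposited log2 columns for IFNγ and IFNβ was read as missing. A spreadsheet had turned 17 symbols into numbers. The 1 unnamed row, at most 0.00873% of the FPKM of any library, was left out. Read counts could not be recovered: among 1226 low genes the most common ratio between a pair of libraries, compared at the same number of digits, was held by 0.326%, as after shuffling. Depth is therefore unknown and no interval rests on it.

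The test was limma 3.58.1 (R 4.3.3) on log2(FPKM + 1) over the 10298 genes that reached 1 FPKM in 3 or more libraries. Its model held a mean for each group, a variance trend and 1 spread estimate from all 18 libraries. P-values are two-sided, with Benjamini-Hochberg adjustment over all genes tested. Alternatives were a pseudocount of 0.1, no filter, median-ratio scaling, TPM computed from the FPKM (every library scaled to the same sum), a block for the replicate number, only the groups compared, and leaving out each library. Tables and promoter letters were handled with Python 3.11.15 and pandas 2.3.3.

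The members and lists were chosen with earlier results of these data known. Genes named were, by rule, the called members with the largest changes in each comparison (up to 6 each way), the highest and lowest of each complex, a fixed set of well known subunits, and the called genes with the largest changes of each other list. Some genes found by the rule are left unprinted. Ndufa1, Ndufa5, Ndufa9, Ndufa12, Ndufaf1, Ndufaf8, Ndufb3, Ndufb7, Ndufb10, Cox7c, Atp5f1c, Atp5mc1, Atp5pf, Atp5po, Uqcrc2, Uqcrq, Nrf1, Gabpa and Yy1 were added after their values were seen or for their role.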

Additional observations from a re-analysis of the deposited data

Results flagged for a closer look

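The change with an interferon differed between cells with and without TIC for 6 gene and interferon pairs, by the test of the difference itself. For IFNγ the number of members past an adjusted p of 0.05 was 4, and for IFNβ it was 2, where 13.8% and 15.8% of all genes passed. All of these members were lower, where 10.2% and 8.66% of all genes were lower. After median-ratio scaling the counts were 1 and 2. All 6 values were below 0, so the log2 change with interferon was lower on TIC. Atp5f1d was past the threshold for both interferons (-0.30 and -0.42), and both comparisons share the control and TIC libraries.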

How the results depend on the processing

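The number of members called was recomputed under every alternative for the 11 comparisons. Median-ratio scaling moved it from 25 to 13 with IFNβ, from 31 to 10 for IFNγ+TIC against TIC, from 48 to 22 for IFNβ+TIC against TIC, from 20 to 12 for IFNβ against IFNγ, from 10 to 6 for the same with TIC, and from 4 to 1 for the interaction with IFNγ. With IFNγ alone the count of 1 went to 0 with scaling, with the pseudocount of 0.1 and with the replicate block. The log2 change of Sdhb for IFNβ+TIC against TIC, -0.16, reversed to 0.0052 after scaling. The counts against the controls with TIC, IFNγ+TIC, and IFNβ+TIC stayed within 1.5 times under every alternative. Leaving out 1 library gave 0 to 2 with IFNγ, 18 to 29 with IFNβ, 37 to 43 with TIC, 51 to 62 with IFNγ+TIC and 62 to 65 with IFNβ+TIC. It gave 21 to 33 and 40 to 45 for IFNγ and IFNβ on TIC against TIC, 8 to 24 for IFNβ against IFNγ (8 without IFNβ 2), 4 to 10 with TIC (4 without IFNγ+TIC 3 or IFNβ+TIC 1), and 1 to 7 and 1 to 6 for the interactions with IFNγ and IFNβ. With IFNγ alone the count was 0 without Control 1, Control 2 or any IFNγ library and 2 without Control 3.

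Replicate numbers do not pair the libraries. Libraries with the same number deviated together with correlations of -0.17 to 0.15, over 0.1 in 6 of 45 pairs, and 5 of 18 libraries correlated best with a library of their own number. With the replicate block the counts were 25 for IFNβ, 44 for TIC, 64 for IFNγ+TIC and 65 for IFNβ+TIC, and Atp5mf for IFNγ+TIC against TIC had an adjusted p of 0.0519 (limma). Over the named members, leaving out a library left 3475 results on the same side of the threshold, took 221 below it and brought 48 past it. The depth is unknown, so which low levels it limits cannot be said.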
